A study of Mus musculus with 16 samples.

Results

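Neutrophils carry their proteins in granules that form at successive stages of maturation, and 10 genes of the later, secondary and tertiary granules and of the secreted proteins that accompany them were followed here in dendritic cell progenitors from tumor-bearing mice: *Ngp*, *Camp*, *Ltf*, *Lcn2*, *Wfdc21* (named 1100001G20Rik in older lists), *Chil3* (formerly *Chi3l3*), *Mmp8*, *Mmp9*, *Retnlg* and *Cd177*. Members were all noncontrol probes carrying one of these names, which gave 11 of the 39429 probes on the array, with a pair of probes for *Camp* and 1 for each other gene. The genes were chosen by the measured log2 differences between tumor-bearing and tumor-free samples of these arrays, so those differences, and everything built from them, are given as a description, with no p-value and nothing read from the counts. The rule had no threshold. The name of the list is the textbook one, and the members did not move as a unit in these samples. The study compared macrophage-dendritic cell progenitors (MDPs), which can still form monocytes and macrophages, with common dendritic cell progenitors (CDPs), the next stage toward dendritic cells, sorted from bone marrow after lineage depletion.

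Every animal was a female C57/Bl6 mouse. Tumor-bearing mice carried an orthotopic mammary tumor of 1.5 cm diameter, grown from PyMT-B6 cells in the mammary fat, and tumor-free mice were age-matched controls without a tumor. PyMT-B6 is 1 cell line, derived from the MMTV-PyMT model, in which polyoma middle T antigen is driven in mammary epithelium, so the tumor groups represent that line. There were 4 samples in each of the 4 groups (MDP and CDP, tumor-free and tumor-bearing), each pooled from 2 mice and hybridized to its own one-color array, and the labels number them 2 to 5.

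Secondary granules are loaded at the myelocyte and metamyelocyte stages with antimicrobial and iron-binding proteins, and tertiary granules somewhat later with matrix-degrading proteases. In committed neutrophil precursors the transcription factor C/EBPε switches on much of this set, while the primary granule proteases and myeloperoxidase are made earlier, in promyelocytes. Several of the genes have other sources as well: *Lcn2* is an acute-phase gene induced by inflammatory cytokines, and *Chil3* is made by monocytes and macrophages.

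The promoters of genes whose signals moved together are shown first, to set sequence beside expression. RefSeq promoter windows on GRCm38.p6 were given for 8 of the 10 genes, and *Wfdc21* and *Mmp9* were not among them. The 250 bases before the start site are printed 5′ to 3′ for the 3 genes that varied together between arrays (*Ngp*, *Camp*, *Ltf*) and for 3 whose tumor-bearing samples all lay above the tumor-free samples of the same population (*Lcn2*, *Chil3*, *Mmp8*), with matches to the searched motifs in capitals. *Ngp* is at chr9:110419558-110419807 (plus strand), *Camp* at chr9:109849457-109849706 (minus), *Ltf* at chr9:111019042-111019291 (plus), *Lcn2* at chr2:32387740-32387989 (minus), *Chil3* at chr3:106167565-106167814 (minus) and *Mmp8* at chr9:7558179-7558428 (plus).
Ngp: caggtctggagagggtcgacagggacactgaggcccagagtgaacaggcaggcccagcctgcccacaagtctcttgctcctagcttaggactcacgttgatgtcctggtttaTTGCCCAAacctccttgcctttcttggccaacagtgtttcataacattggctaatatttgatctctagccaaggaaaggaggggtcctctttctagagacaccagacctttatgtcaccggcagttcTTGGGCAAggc
Camp: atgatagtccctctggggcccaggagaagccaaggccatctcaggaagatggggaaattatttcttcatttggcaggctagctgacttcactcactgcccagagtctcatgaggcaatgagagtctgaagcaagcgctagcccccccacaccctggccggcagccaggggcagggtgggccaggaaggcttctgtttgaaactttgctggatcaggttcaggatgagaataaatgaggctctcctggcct
Ltf: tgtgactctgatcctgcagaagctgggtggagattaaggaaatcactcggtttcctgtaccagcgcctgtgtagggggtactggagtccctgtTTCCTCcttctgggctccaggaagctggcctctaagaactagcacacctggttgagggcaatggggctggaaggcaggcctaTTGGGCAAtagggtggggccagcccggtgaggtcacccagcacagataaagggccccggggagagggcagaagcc
Lcn2: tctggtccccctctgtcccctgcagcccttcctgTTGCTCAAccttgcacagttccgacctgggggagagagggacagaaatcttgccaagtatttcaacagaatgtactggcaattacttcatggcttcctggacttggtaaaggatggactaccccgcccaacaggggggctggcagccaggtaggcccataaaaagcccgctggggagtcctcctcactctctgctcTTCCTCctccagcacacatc
Chil3: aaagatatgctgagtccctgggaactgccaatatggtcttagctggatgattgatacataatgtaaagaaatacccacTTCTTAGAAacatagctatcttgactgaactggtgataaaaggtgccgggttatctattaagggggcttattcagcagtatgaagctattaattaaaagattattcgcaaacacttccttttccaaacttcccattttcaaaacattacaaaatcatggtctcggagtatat
Mmp8: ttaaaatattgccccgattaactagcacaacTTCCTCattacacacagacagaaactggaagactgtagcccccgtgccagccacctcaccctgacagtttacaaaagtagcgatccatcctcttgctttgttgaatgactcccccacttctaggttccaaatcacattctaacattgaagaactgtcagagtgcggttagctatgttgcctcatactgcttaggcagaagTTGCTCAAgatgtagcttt

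The motifs were searched on both strands over 250 bases before and 50 after the start, and no matches of different motifs overlapped. TTGCNNAA, a C/EBP form, was present in 5 of the 8 promoters (*Ngp*, *Ltf*, *Lcn2*, *Mmp8*, *Retnlg*) and in 10.8% of the 32851 promoter windows of the table. *Ngp* held it at 138 and again at 11 bases before the start, *Ltf* at 75, *Lcn2* at 216 and *Mmp8* at 19. GAGGAA, a PU.1 core, was present in 4 of 8 (*Ltf*, *Lcn2*, *Mmp8*, *Cd177*) and in 28.3% of all windows. TTCNNNGAA, a STAT form, was found in *Chil3* alone among the 8 and in 8.3% of all windows, and TGTGGT, a RUNX core, in *Ltf* alone, 26 bases after the start, and in 16.8% of all windows. The *Camp* window held none of these letters. The genes that were higher with a tumor and those that were not therefore did not separate by these matches: *Ngp* and *Ltf* shared the C/EBP letters with *Lcn2* and *Mmp8*.

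Signals are log2 values of the spot intensity minus the 75th percentile of the same array, so that a level of 0 is as bright as that percentile, and differences are on the same log2 scale. The array percentiles lay between 3618 and 4654 intensity units, and between 58.8% and 71.5% of probes were well above background. No member spot was saturated on any array. Progenitor markers were checked against the sort. *Csf1r*, *Flt3*, *Cx3cr1*, *Csf2ra* and *Kit* were well above background on 4 of 4 arrays of each group. *Il7r*, listed as a marker expected to be low, was above background on 2 of the 16 arrays. *Ly6d*, listed likewise, was well above background on 4 of 4 arrays of each group, with group means from −2.25 to −0.70. In tumor-bearing CDPs *Kit*, the stem cell factor receptor used in such sorts, fell by 1.34 (SE 0.20, limma adjusted p = 0.00427) without overlap, and *Cx3cr1* differed by −1.27 (SE 0.41, adjusted p = 0.146), also without overlap. The linear signal was summed over the 7 progenitor markers, *Ly6d* and *Il7r* included, in percent of the array's 75th percentile. The sum was 4010 to 4575 in tumor-free and 3225 to 3564 in tumor-bearing CDPs. It overlapped in MDPs, where it was 2764 to 3227 without a tumor and 1991 to 2965 with one. The part of this shift in the member values was not tested. Of 9 neutrophil markers that are not members, between 5 and 8 were well above background on an array. The 5 belong to tumor-bearing MDP sample 3, where 8 markers were measured because the flagged *Trem1* spot was dropped. *Stfa1* was above background on no array and *Stfa2* on 1. The summed signal of the 9 on the same scale ranged from 3320 to 4895 in tumor-free MDPs and from 2563 to 4657 in tumor-bearing MDPs. It ranged from 3284 to 5054 in tumor-free CDPs and from 4614 to 5586 in tumor-bearing CDPs. The lowest value, 2563, is that of tumor-bearing MDP sample 3 without *Trem1*. These sums overlapped between conditions in both populations, but they consist largely of *Csf3r* and *Trem1*, whose group means lay between 3.85 and 4.53 on the log2 scale throughout. The dimmer neutrophil markers were mixed. In CDPs *Il1r2* rose by 4.59 (SE 0.71, limma adjusted p = 0.00638) and *S100a8* differed by 2.19 (SE 0.63, adjusted p = 0.104), both without overlap. *S100a9* (0.88, adjusted p = 0.811), *Cxcr2* (0.89, adjusted p = 0.246) and *Stfa3* (0.40, adjusted p = 0.607) overlapped in CDPs and were not called. In MDPs none of these dimmer markers passed the limma test. The mean log2 signal of the 9 ranged from −2.36 to −0.83 in tumor-free CDPs and from −1.25 to −0.74 in tumor-bearing CDPs. The summed signal of 4 eosinophil, basophil and mast cell markers was higher with a tumor without overlap. It was 447 to 760 against 279 to 421 in MDPs and 208 to 302 against 77.2 to 202 in CDPs. *Mcpt8* was the brightest of them in every group, at means from 0.42 to 1.87. It differed by 0.76 (SE 0.27, limma adjusted p = 0.196) in CDPs without overlap and by 0.30 (SE 0.27, adjusted p = 0.659) in MDPs with overlap. Of these, *Prg2*, eosinophil major basic protein, differed by 3.75 (SE 0.87, adjusted p = 0.18) in MDPs, with overlapping groups. The part of the cells behind these markers in the member values was not tested. The sums of monocyte, macrophage, erythroid, B cell, T and NK cell and mammary tumor markers overlapped between conditions in both populations. In such sorted bulk samples, fewer cells of a type and less RNA per cell cannot be told apart.

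*Lcn2* encodes lipocalin 2, which starves bacteria by binding iron-loaded siderophores. Its signal in tumor-free MDPs was 1.24, 0.51, 1.16 and 0.42, and in tumor-bearing MDPs 2.47, 3.63, 3.29 and 2.60 (samples 2 to 5). In tumor-free CDPs it was 1.29, 0.40, 0.67 and 0.02, and in tumor-bearing CDPs 2.92, 3.75, 3.78 and 2.73. All 8 tumor-bearing arrays lay above all 8 tumor-free arrays, whereas MDPs and CDPs overlapped within each condition. The fitted difference was 2.16 (SE 0.35, 4.48-fold) in MDPs and 2.70 (SE 0.35, 6.49-fold) in CDPs.

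*Wfdc21* encodes a small secreted protein with a whey acidic protein domain, a fold shared with protease inhibitors. Tumor-free MDPs read −2.20, −2.30, −3.11 and −2.60, and tumor-bearing MDPs 0.58, 0.84, 0.38 and 0.09. Tumor-free CDPs read −2.06, −3.23, −3.60 and −4.60, and tumor-bearing CDPs 0.96, 1.88, 1.92 and 0.72. The gap between conditions was wide in both populations, with no overlap, and the tumor-free CDPs were the most spread of the 4 groups (SD 1.05, n = 4). The difference was 3.02 (SE 0.44) in MDPs and 4.74 (SE 0.44, 26.8-fold) in CDPs, and the latter was 3.96 after normexp background correction. The 10 spots of this probe were averaged on each array.

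*Chil3* encodes a chitinase-like lectin without chitinase activity, known as Ym1. Its signal was −1.21, −1.14, −0.57 and −2.56 in tumor-free MDPs and 2.16, 2.51, 1.96 and 0.72 in tumor-bearing MDPs. It was 2.92, 0.88, 2.02 and 1.26 in tumor-free CDPs and 3.85, 4.40, 4.01 and 3.16 in tumor-bearing CDPs. The groups formed a ladder in which tumor-bearing MDPs (mean 1.84 ± 0.78, SD, n = 4) and tumor-free CDPs (1.77 ± 0.90) overlapped, with tumor-free MDPs below every other array and tumor-bearing CDPs above every other array. The tumor difference was 3.21 (SE 0.52, 9.23-fold) in MDPs and 2.08 (SE 0.52, 4.23-fold) in CDPs.

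*Mmp8*, neutrophil collagenase, cleaves fibrillar collagen and is stored in secondary granules. It read −0.63, −0.47, −0.37 and −0.69 in tumor-free MDPs and 0.24, 0.99, 0.12 and 0.63 in tumor-bearing MDPs. In CDPs it read 1.08, 0.21, 0.46 and −0.06 without a tumor and 2.07, 2.87, 2.20 and 2.02 with one. The order of the groups was that of *Chil3*, with tumor-bearing MDPs and tumor-free CDPs again overlapping in the middle (0.49 ± 0.40 and 0.42 ± 0.49). The difference was 1.03 (SE 0.27, 2.05-fold) in MDPs and 1.87 (SE 0.27, 3.65-fold) in CDPs.

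**Figure D1:**
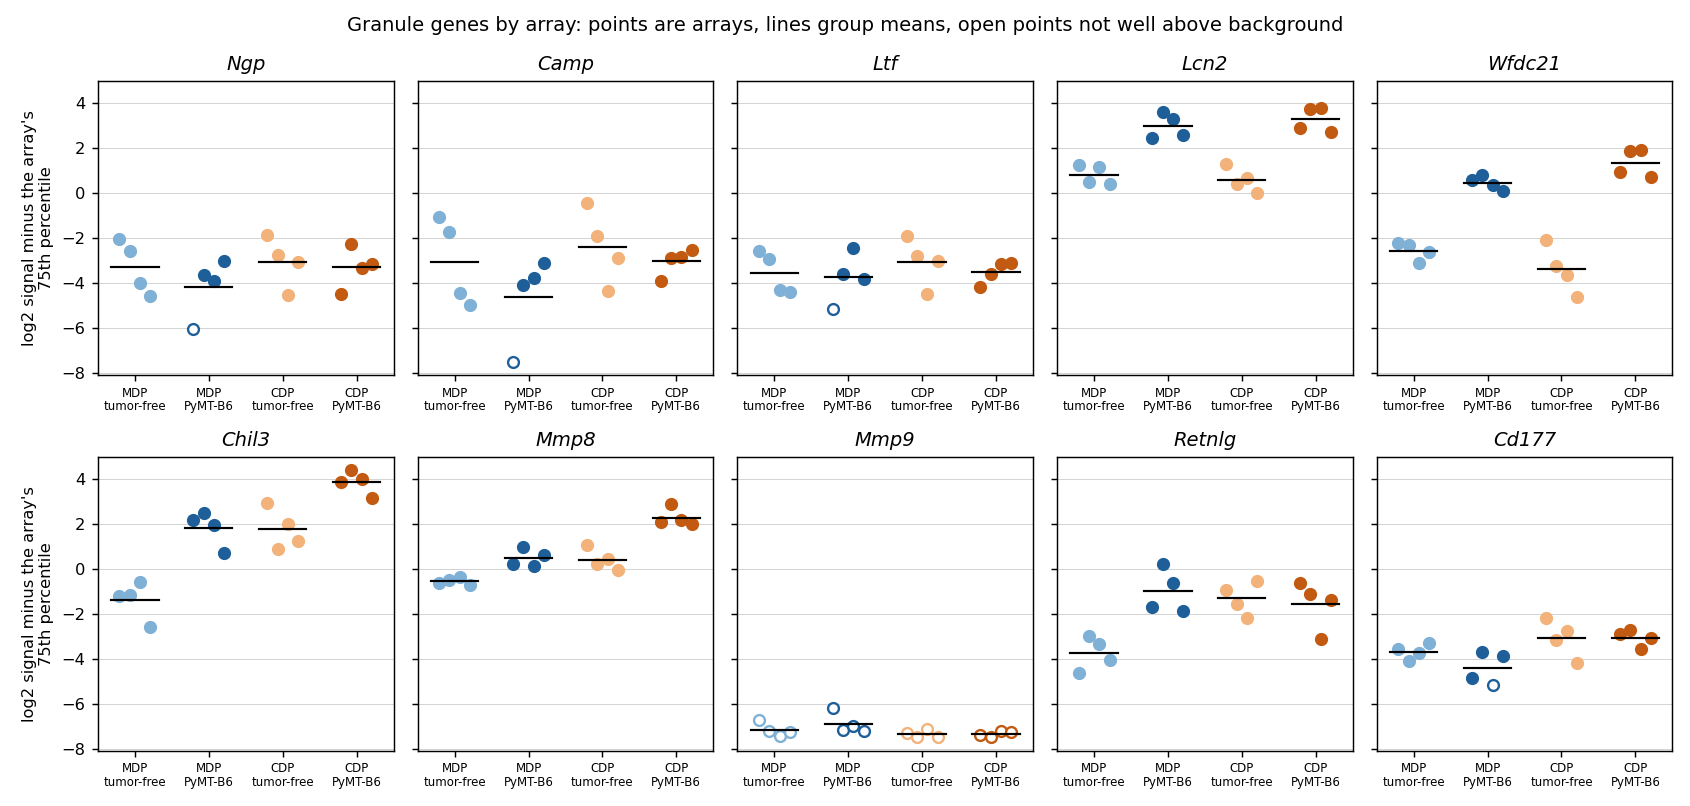
Signal of each of the 10 genes on the 16 arrays (y axis, log2 signal minus the array's 75th percentile) in the 4 groups (x axis), with filled points for arrays where the probe was well above background, open points where it was not, and a line at the group mean. *Lcn2*, *Wfdc21*, *Chil3* and *Mmp8* sit higher in the tumor-bearing arrays of each population, *Ngp*, *Camp* and *Ltf* spread widely within every group, and *Mmp9* is open on all 16 arrays.

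The other antimicrobial genes did not share this pattern. *Ngp*, neutrophilic granule protein, is a cystatin-related protein of secondary granules. Its signal was −2.03, −2.54, −3.97 and −4.56 in tumor-free MDPs and −6.03, −3.63, −3.90 and −3.00 in tumor-bearing MDPs. In CDPs it was −1.83, −2.73, −4.52 and −3.03 without a tumor and −4.45, −2.25, −3.31 and −3.12 with one. Every pair of groups overlapped, and the differences were −0.86 (SE 0.75) in MDPs and −0.25 (SE 0.75) in CDPs.

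*Camp* encodes cathelicidin, the precursor of a membrane-disrupting antimicrobial peptide. Its brighter probe read −1.06, −1.70, −4.45 and −4.95 in tumor-free MDPs and −7.47, −4.09, −3.76 and −3.09 in tumor-bearing MDPs. In CDPs it read −0.43, −1.87, −4.34 and −2.86 without a tumor and −3.89, −2.87, −2.83 and −2.51 with one. Tumor-free samples 2 and 3 of both populations were the highest arrays, and the tumor groups fell inside or below the tumor-free range. The differences were −1.56 (SE 1.07) in MDPs and −0.65 (SE 1.07) in CDPs.

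*Camp* was the only member with a second probe, which gave differences of −1.77 (SE 0.88) in MDPs and −0.50 (SE 0.88) in CDPs, the same signs as the first. The probes share 50 bases with 2 mismatches, A6G and T10C, written as the first probe's base, its position counted from 1 at the first shared base, and the second probe's base. The first 30 shared bases are printed because the mismatches lie in them, with the differing bases in capitals.
Camp first probe: cagccAgagTagtaggcctgccttggcctg
Camp second probe: cagccGgagCagtaggcctgccttggcctg

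*Ltf* encodes lactoferrin, the iron-binding protein of secondary granules. It read −2.58, −2.90, −4.28 and −4.40 in tumor-free MDPs and −5.15, −3.56, −2.44 and −3.80 in tumor-bearing MDPs. In CDPs it read −1.88, −2.77, −4.47 and −3.00 without a tumor and −4.14, −3.57, −3.12 and −3.11 with one. The groups overlapped throughout, with differences of −0.20 (SE 0.62) in MDPs and −0.45 (SE 0.62) in CDPs. On tumor-bearing MDP sample 2, *Ngp*, *Camp* and *Ltf* were not well above background. Without that sample the MDP differences were −0.24, −0.61 and 0.27, so the sign for *Ltf* turned. It also turned, to 0.27, under quantile normalization. Without tumor-free CDP sample 2 the CDP difference of *Ngp* was 0.14.

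*Retnlg*, which encodes a secreted resistin-like protein of myeloid cells, had different values in the MDPs and the CDPs. Tumor-free MDPs read −4.62, −2.98, −3.32 and −4.04, and tumor-bearing MDPs −1.68, 0.21, −0.61 and −1.84, with no overlap and a difference of 2.76 (SE 0.59, 6.78-fold), which was 1.73 after normexp background correction. Tumor-free CDPs read −0.92, −1.53, −2.16 and −0.54, and tumor-bearing CDPs −0.63, −1.10, −3.10 and −1.39, with full overlap and a difference of −0.27 (SE 0.59). Tumor-free MDPs had the lowest mean and overlapped only with tumor-bearing CDP sample 4, and the ranges of the other 3 groups overlapped.

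*Cd177* encodes a surface glycoprotein of neutrophils that pairs with the adhesion molecule PECAM1. It read −3.57, −4.08, −3.72 and −3.29 in tumor-free MDPs, −4.86, −3.69, −5.17 and −3.87 in tumor-bearing MDPs, −2.16, −3.13, −2.75 and −4.18 in tumor-free CDPs, and −2.87, −2.72, −3.56 and −3.04 in tumor-bearing CDPs. Its tumor differences were −0.73 (SE 0.41) in MDPs and 0.01 (SE 0.41) in CDPs, with overlapping groups in both. Tumor-bearing MDPs lay below tumor-bearing CDPs without overlap, and the other neighbouring groups overlapped.

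*Mmp9*, gelatinase B of tertiary granules, was not well above background on any of the 16 arrays, with values from −7.47 to −6.17 averaged over 10 spots of its probe. It did not pass the filter for low signal, which asked for 3 of the 4 arrays of any one group, and no difference is given for it.

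As a description of the fit, of the 9 members that passed this filter 3 crossed the call threshold in MDPs (*Lcn2*, *Wfdc21*, *Chil3*) and 3 in CDPs (*Lcn2*, *Wfdc21*, *Mmp8*), all higher, at a false discovery rate under 0.05 and over 1.5-fold. Over all 27433 tested probes the share called was 0.0656% in MDPs (0.0328% higher) and 1.80% in CDPs (0.802% higher), and since the members were proposed from these differences nothing is read from the comparison. The groups did not overlap for 5 members in MDPs and 4 in CDPs, all higher with a tumor, against 2.71% and 5.71% of all probes. The median difference over the 9 was 1.03 in MDPs, where the median of all tested probes was −0.12, and 0.01 in CDPs, where it was 0.08. Leaving out 1 array at a time lowered the number of MDP calls from 3 to 0 or 1 in 14 of 16 fits. The exceptions were those without tumor-bearing MDP sample 5 and without tumor-free CDP sample 2, which did not both keep 3 calls. Over the 16 fits the MDP call was kept in 1 for *Lcn2*, in 2 for *Chil3* and in 8 for *Wfdc21*. The CDP calls numbered 3 or 4 in all 16.

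**Figure D2:**
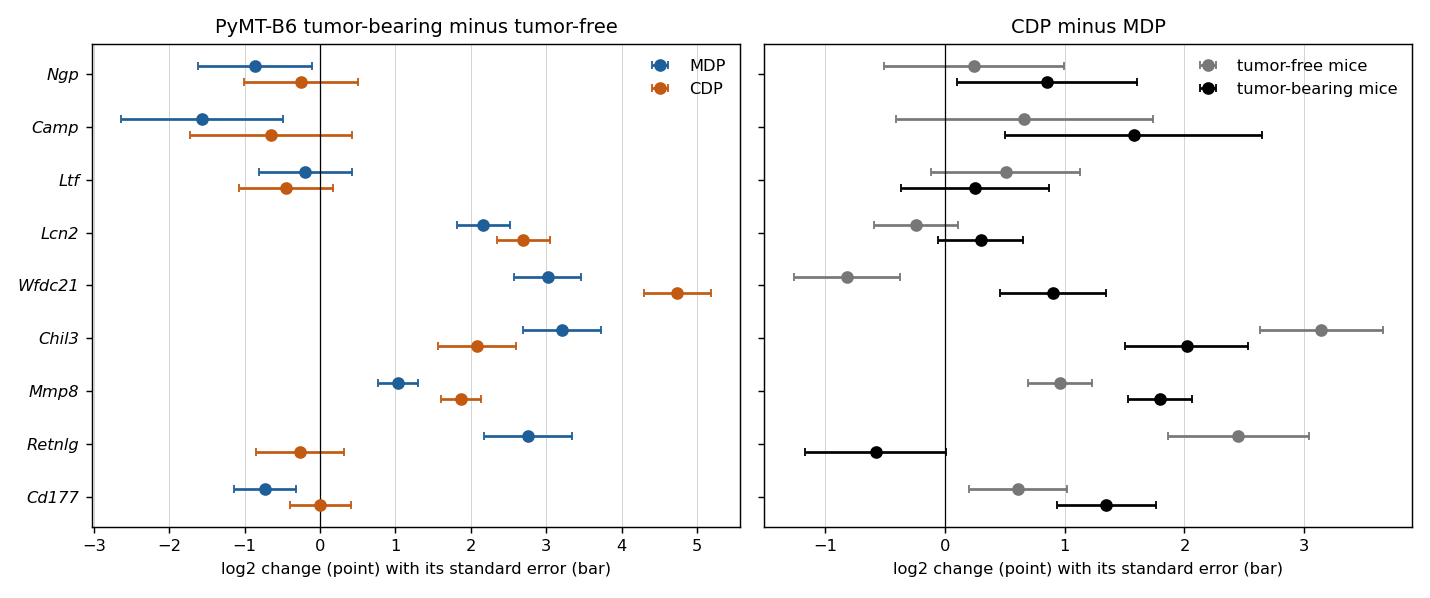
Log2 differences (x axis; point, fitted value; bar, standard error; 4 arrays a group) for the 9 members that passed the filter (y axis). Tumor-bearing minus tumor-free is on the left for MDPs and CDPs and CDP minus MDP on the right for each condition. *Lcn2*, *Wfdc21*, *Chil3* and *Mmp8* lie to the right of 0 in both populations, and *Retnlg* does so in MDPs (2.76) but not in CDPs (−0.27).

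The difference between the tumor differences of CDPs and MDPs is made of the same values and is no test of the members. In that term of the limma fit 0 of 9 members crossed the threshold, as did 0.0146% of all probes. An unadjusted p under 0.05 was given by 3 of the 9 and by 1106 of all 27433 tested probes. The members were proposed from the differences that make up this term, so nothing is read from these counts. The largest fitted values, CDP effect minus MDP effect, were −3.03 (SE 0.83) for *Retnlg*, 1.72 (SE 0.63) for *Wfdc21* and −1.12 (SE 0.73) for *Chil3*.

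The 16 arrays lay on 4 slides, of which 3 held both CDP groups and 3 both MDP groups. Within these slides *Lcn2*, *Wfdc21*, *Chil3* and *Mmp8* were higher with a tumor on 3 of 3 slides in each population. The smallest within-slide difference was 0.24, for *Chil3* in CDPs, and the largest 5.52, for *Wfdc21* in CDPs. *Retnlg* was higher on 3 of 3 slides in MDPs (1.84 to 4.83) and on 1 of 3 in CDPs. *Ngp*, *Camp* and *Ltf* were each higher with a tumor on 1 of 3 slides in either population, with *Camp* in MDPs ranging from −3.91 to 1.86.

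The step from MDP to CDP in tumor-free mice was not the difference used to propose the genes, and it was put through the limma test. The members were, however, listed with earlier results of these arrays known. The step also shares the tumor-free arrays with both tumor differences, so a choice by those differences bears on it too. Its adjusted p-values and counts for the members are therefore not an independent test, and nothing is read from the counts. The genes that rose were *Chil3* by 3.14 (SE 0.52, 8.83-fold, limma adjusted p = 0.00207), *Retnlg* by 2.45 (SE 0.59, 5.46-fold, adjusted p = 0.0216) and *Mmp8* by 0.96 (SE 0.27, 1.95-fold, adjusted p = 0.0452). All 3 were higher in 4 of 4 tumor-free CDP arrays than in any tumor-free MDP array. These were 3 of 9 members, where 6.10% of all tested probes were called in either direction, 2.94% were called higher, and 6.56% were higher without overlap. The median over the members was 0.61, against 0.02 over all tested probes.

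None of the antimicrobial and iron-binding genes passed the test in this step. The differences were 0.24 (SE 0.75, adjusted p = 1) for *Ngp*, 0.66 (SE 1.07, adjusted p = 0.956) for *Camp*, 0.51 (SE 0.62, adjusted p = 0.896) for *Ltf*, −0.24 (SE 0.35, adjusted p = 0.938) for *Lcn2* and −0.82 (SE 0.44, adjusted p = 0.403) for *Wfdc21*. *Cd177* gave 0.61 (SE 0.41, adjusted p = 0.565). A 2-fold difference is smaller than 2 of these standard errors for *Ngp*, *Camp* and *Ltf* and was not detectable with these arrays. Within slides *Chil3*, *Mmp8* and *Retnlg* were higher in CDPs on 4 of 4 slides. The call for *Mmp8* was lost when any of 12 of the 16 arrays was left out (adjusted p = 0.139 without tumor-free CDP sample 2), and that for *Retnlg* when tumor-free MDP sample 2 or 5 or tumor-free CDP sample 2 or 5 was left out (highest adjusted p = 0.0758). The call for *Chil3* was kept in all 16. After normexp background correction *Retnlg* gave 1.42 (adjusted p = 0.0799) and *Mmp8* 0.88 (adjusted p = 0.0672). Monocyte markers moved with this step: the summed signal of 4 of them, all well above background on every array, ranged from 2319 to 2904% of the array's percentile in tumor-free MDPs and from 3447 to 4587% in tumor-free CDPs, without overlap, and their part in the rise of the 3 genes was not tested. *Kit* fell by 2.59 (SE 0.20, adjusted p = 3.59e-06) in the same step.

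In tumor-bearing mice the same step is made of arrays that entered the tumor differences and is given as values alone. *Chil3* was 2.02 and *Mmp8* 1.80 higher in CDPs than in MDPs, both without overlap. *Retnlg*, 2.45 higher in CDPs without a tumor, was −0.58 (SE 0.59) with one. *Wfdc21* read −0.82 without a tumor and 0.90 with one, and *Cd177* 0.61 and 1.35.

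The members also differed in how they varied among samples of a single group. The residual SD of the fit was 1.63 for *Camp*, 1.14 for *Ngp* and 0.94 for *Ltf*, at percentiles 98.4, 90.3 and 83.9 of the tested probes, whose median was 0.44. It was 0.38 for *Mmp8*, 0.52 for *Lcn2*, 0.66 for *Wfdc21* and 0.77 for *Chil3*. With the group means removed, *Ngp*, *Camp* and *Ltf* moved together across the 16 arrays (Pearson r of 0.95 for *Ngp* and *Camp*, 0.83 for *Ngp* and *Ltf* and 0.90 for *Camp* and *Ltf*). The pairs of *Lcn2*, *Wfdc21*, *Chil3* and *Mmp8* gave r from 0.52 to 0.72, and the 12 pairs across these sets from 0.06 to 0.45. With slide means removed as well, the ranges were 0.86 to 0.95, 0.57 to 0.77 and 0.14 to 0.61. *Cd177* was closest to *Mmp8* (r = 0.75), and no pair with *Retnlg* exceeded 0.27. The mean deviation of *Ngp*, *Camp* and *Ltf* had the same sign in same-numbered MDP and CDP samples of each condition. Those arrays may therefore not be independent of each other, which was not tested. These sets were drawn after the values were seen, and the arrays share slides and scaling, so the correlations are a description.

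**Figure D3:**
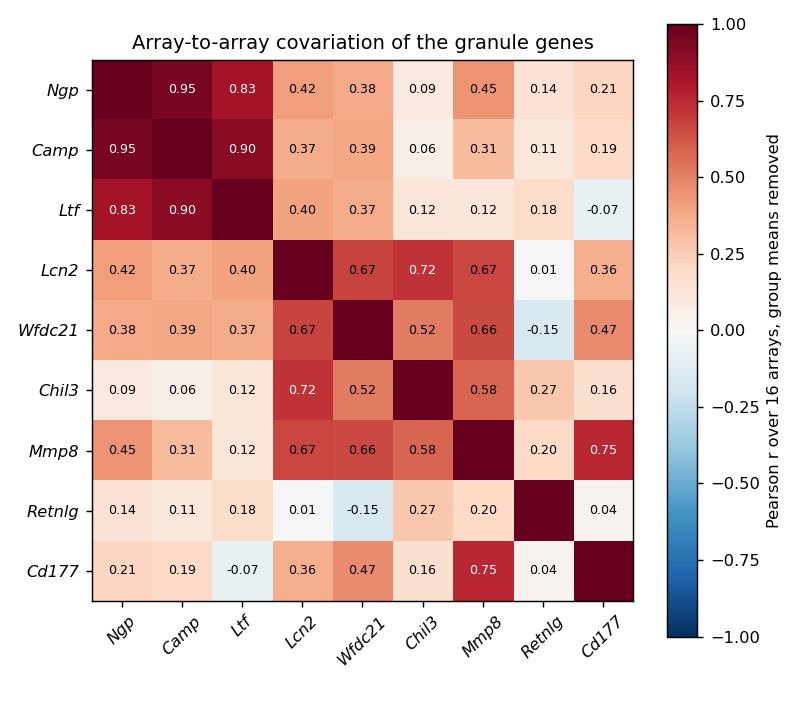
Pearson r between members over the 16 arrays after the mean of each group was removed (both axes, members; color and printed value, r). The block of *Ngp*, *Camp* and *Ltf* reads 0.83 to 0.95, the block of *Lcn2*, *Wfdc21*, *Chil3* and *Mmp8* 0.52 to 0.72, and the cells between them 0.06 to 0.45.

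Averaged over genes, the set of 3 ranged from −4.63 to −1.89 in tumor-free MDPs, −6.21 to −3.30 in tumor-bearing MDPs, −4.45 to −1.38 in tumor-free CDPs and −4.16 to −2.90 in tumor-bearing CDPs. The set of 4 ranged from −1.36 to −0.70, 1.01 to 1.99, −0.84 to 0.81 and 2.16 to 3.22 in the same order. Within each population the conditions did not overlap in the second set, which restates that its genes were put together for being higher with a tumor, and they overlapped in the first. Tumor-free CDP sample 2 was the highest of its group in both sets.

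**Figure D4:**
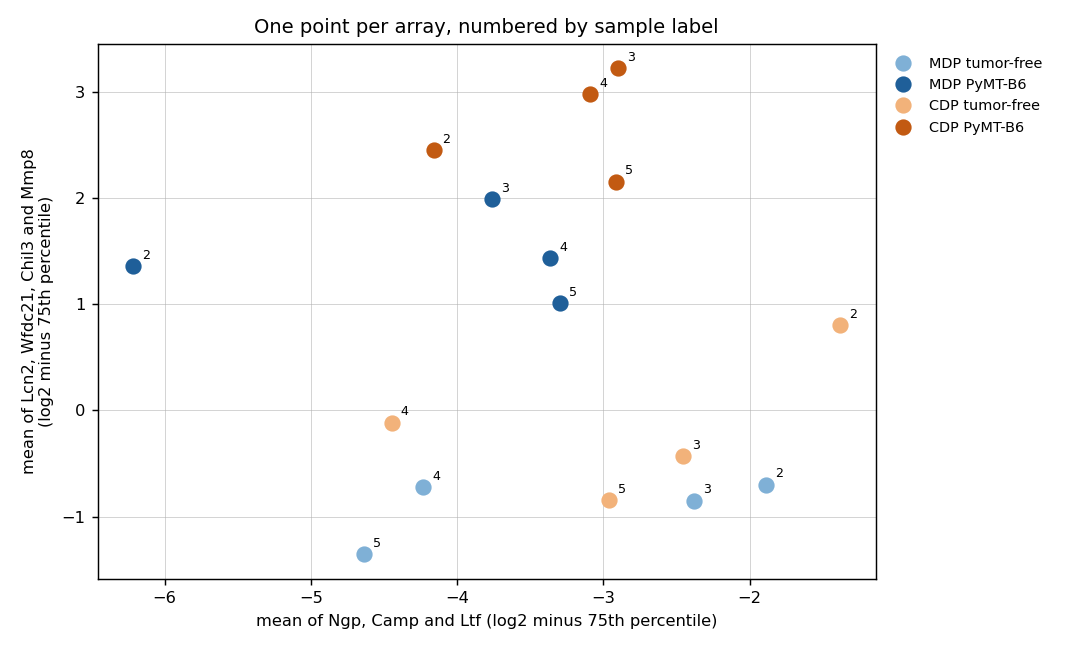
Each of the 16 arrays by its mean signal of *Ngp*, *Camp* and *Ltf* (x axis) and of *Lcn2*, *Wfdc21*, *Chil3* and *Mmp8* (y axis), both as log2 minus the array's 75th percentile, colored by group and numbered as in the labels. The tumor-bearing arrays lie at 1.01 or above on the y axis and the tumor-free ones at 0.81 or below, while on the x axis the groups overlap.

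The 3 genes that varied together also lie near each other. In GRCm38.p6 the start sites of *Camp*, *Ngp* and *Ltf* fall in this order within 1.17 Mb of chromosome 9, 0.57 and 0.599 Mb apart. The deposited probe positions, on mm9, place the *Camp* probe at chr9:109749911-109749970 and the *Ltf* probe at chr9:110942873-110942932. The 34 other tested probes between these positions, from 28 genes, did not share the variation: their r with the mean of the 3 genes (group means removed) had a median of 0.08, against 0.04 over all tested probes, and exceeded 0.5 for 1 of them (2.94%) against 1.43% of all. *Mmp8*, also on chromosome 9 (probe at chr9:7568238-7568297), lies far from this interval.

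The 5 genes outside the list whose values over the 16 arrays were most like the mean of the 9 scaled members, among 15471 genes, were *Ms4a4a* (r = 0.82), *S100a9* (0.80), *Fmr1* (0.79), *Rbm42* (0.79) and *Auh* (0.79). *S100a9* encodes a subunit of calprotectin, an abundant cytosolic protein of neutrophils and monocytes. It was also the nearest gene to *Ngp*, *Camp* and *Ltf* with group means removed (r = 0.78). Close behind it were *Gpatch3* (0.77), *Gtpbp8* (0.75), *Atp4a* (0.75) and *Firre* (0.73), so the first rank does not set *S100a9* apart. With group means kept, so that r includes the differences between groups and cannot be set beside the 0.78, the nearest to *Lcn2*, *Wfdc21*, *Chil3* and *Mmp8* were *Ctsc* (0.92), which encodes the protease that activates granule serine proteases, *Ddi2* (0.92) and *Lrg1* (0.92), an acute-phase glycoprotein also found in neutrophil granules. These latter profiles were taken after the members' values were seen.

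Other granulocyte genes placed the members in the wider program. Of 40 listed genes, 39 had a probe under that name (*Ly6g* had none) and 36 were tested. Of all tested probes, 1.80% were called in CDPs with a tumor, 0.802% higher. Of the 36, 5 rose and none fell. They were *Il1r2*, the decoy receptor for interleukin-1, by 4.59 (SE 0.71, limma adjusted p = 0.00638), the promyelocyte gene *Ms4a3* by 2.19 (adjusted p = 0.00112), *Gfi1*, a repressor required for neutrophil commitment, by 1.73 (adjusted p = 0.0382), haptoglobin *Hp* by 1.12 (adjusted p = 0.0261) and neutrophil elastase *Elane* by 1.11 (adjusted p = 0.0227). In MDPs 0 of 36 passed the limma test, beside 0.0656% of all tested probes. An unadjusted p under 0.05 was given by 8, and by 2853 of all 27433 tested probes. In the fit of only the 2 CDP groups 1 was called, beside 56 of all 27433 tested probes. The median difference over the 36 was 0.37 in CDPs and 0.12 in MDPs, beside 0.08 and −0.12 for all tested probes. Without overlap of the groups, 11 of the 36 were higher in CDPs and 4 in MDPs, and none was lower. Over all probes 5.71% and 2.71% were higher without overlap. Without tumor-free CDP sample 2 or 3 or tumor-bearing CDP sample 3 or 4, 2 of the 36 were called in CDPs, and without tumor-free CDP sample 5, 3.

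Several neighbours of the members in the granule program did not pass the test in either population. *Cebpe*, whose product drives secondary granule genes, differed by 0.62 (SE 0.38, adjusted p = 0.544) in CDPs and −0.28 (SE 0.38, adjusted p = 0.749) in MDPs. *Cebpa* gave 0.01 and 0.05, *Cebpb* 0.56 and 0.76, the G-CSF receptor gene *Csf3r* 0.13 and −0.27, and myeloperoxidase *Mpo* 0.42 and 0.02 in CDPs and MDPs. In CDPs *Mpo* was nonetheless higher with a tumor without overlap, as was *Prtn3* by 0.82 (SE 0.20, limma adjusted p = 0.0558). The calprotectin genes had larger values with larger errors: *S100a8* 2.19 (SE 0.63, adjusted p = 0.104) in CDPs and 1.95 (adjusted p = 0.336) in MDPs, and *S100a9* 0.88 (SE 1.14) and 2.81 (SE 1.14, adjusted p = 0.443).

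Over all tested probes 1673 (6.10%) passed in the step from MDP to CDP without a tumor, 867 of them lower. Of the 36, 11 passed the test, 7 of them lower. Primary granule genes were among them: *Prss57* fell by 2.40, *Ms4a3* fell by 2.36, *Elane* fell by 1.85 and *Prtn3* fell by 0.85 (4 of 6 genes, highest adjusted p = 0.0203). *Gfi1* fell by 4.42 (adjusted p = 1.52e-05), *Cebpe* fell by 1.73 (adjusted p = 0.0131) and the chemokine receptor *Cxcr2* fell by 1.80 (adjusted p = 0.00583). The lysozymes *Lyz2* (2.29) and *Lyz1* (1.05), the integrin chain *Itgb2* (1.55) and the oxidase subunit *Cybb* (1.01) rose, all genes that monocytic cells express too. *Chil3*, *Retnlg* and *Mmp8* thus rose in a step in which 4 of 6 primary granule genes and *Cebpe* fell.

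**Figure D5:**
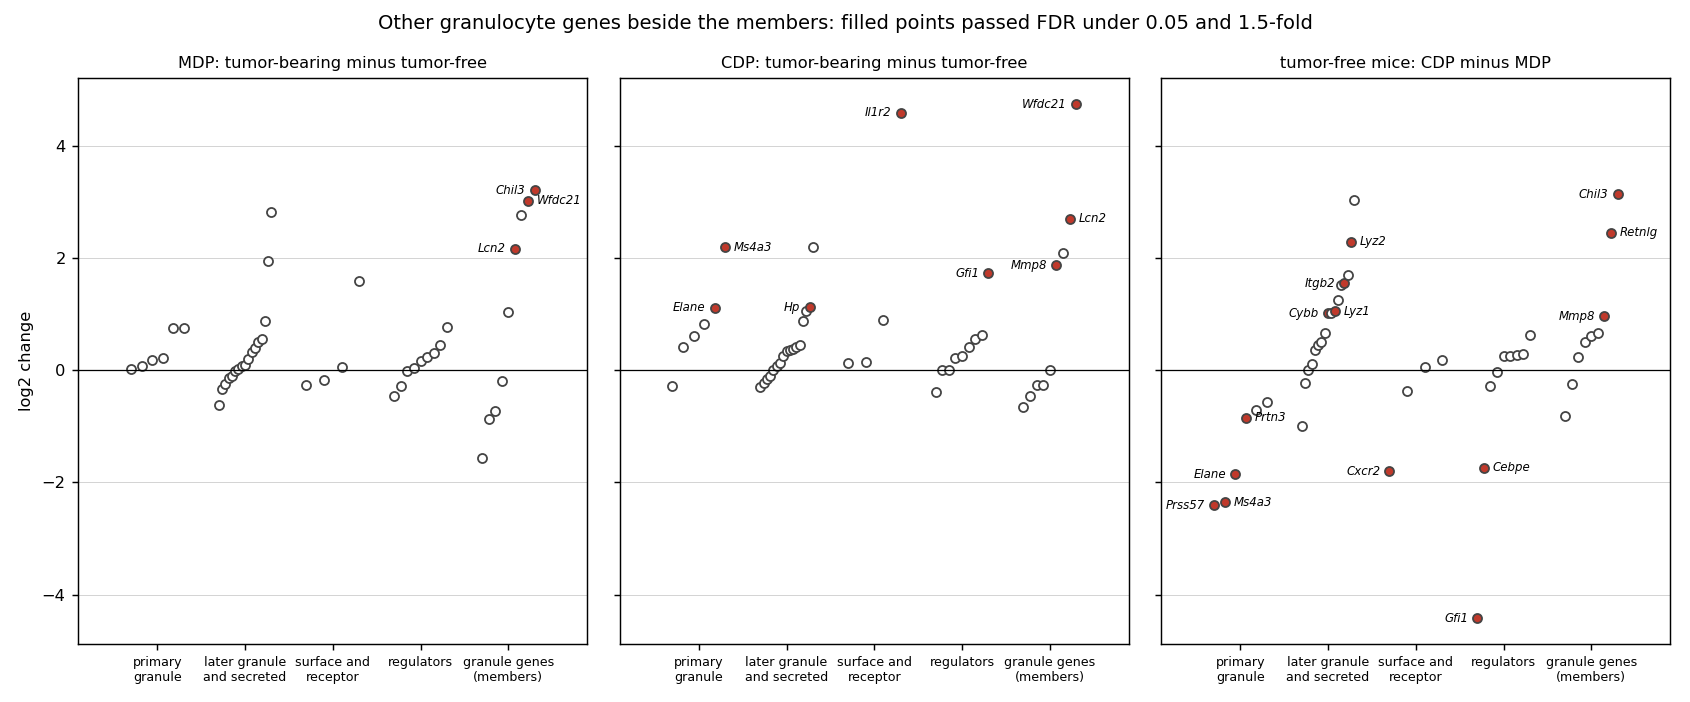
Log2 differences (y axis) of the 36 other granulocyte genes by class and of the 9 tested members (x axis) for the tumor difference in MDPs, the tumor difference in CDPs and the step from MDP to CDP in tumor-free mice. Filled, named points passed a false discovery rate under 0.05 and 1.5-fold: 0, 5 and 11 of the 36 other genes and 3, 3 and 3 of the members. Over all tested probes the shares were 0.0656%, 1.80% and 6.10%. The members were proposed from the tumor differences, so their filled points are a description and nothing is read from their counts.

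Relatives, inhibitors and receptors of the members were listed as well, and 12 of 17 were tested. In CDPs of tumor-bearing mice, *Timp1*, an inhibitor of matrix metalloproteinases including those encoded by *Mmp8* and *Mmp9*, rose (limma adjusted p = 0.000117). It was well above background on 3 tumor-bearing CDP arrays and on none of the tumor-free ones, with means of −4.78 and −7.50, so that the rise was at least 1.42-fold, counted from the lowest signal well above background on each tumor-free array. *Pecam1*, which encodes the partner of CD177, fell by 0.96 (SE 0.22, adjusted p = 0.0424). In MDPs 0 of 12 passed the limma test, beside 0.0656% of all tested probes. An unadjusted p under 0.05 was given by 2, and by 2853 of all 27433 tested probes. In the step without a tumor *Wfdc17* rose by 3.06 (adjusted p = 0.0381) and *Wfdc18* rose by 1.84 (adjusted p = 0.0432), both in the protein family of *Wfdc21*, which read −0.82 there. Each was well above background on 3 of the 4 tumor-free MDP arrays. *Chil4*, closest to *Chil3* in sequence, gave 2.03 (SE 0.63, adjusted p = 0.131) in CDPs and 0.01 in MDPs with a tumor.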

How the data were processed

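The authors deposited, for each of 16 arrays, a scanner table written by Agilent Feature Extraction (version 11.5.1.1), whose processed signal is an intensity corrected for background within the array, together with log2 values of 26793 probes that tracked the quantile-normalized spot signals. Processing notes of the submitters name limma. From the 43020 noncontrol spots, flagged outlier spots were dropped, log2 processed signals were scaled to each array's 75th percentile, and spots of a probe were averaged. The test kept 27433 of 39429 probes, those that 3 or all 4 arrays of any one group measured well above background. The 4 group means were fitted over 16 arrays with limma 3.58.1 (lmFit, eBayes) in R 4.3.3, and p-values were adjusted over all tested probes (Benjamini-Hochberg). A call needed a false discovery rate under 0.05 and more than 1.5-fold. The fit was tested on simulated data. Each gene is given by its brightest tested probe. Genes of the other lists were named where they passed a test (at most 8 per list and comparison), with a fixed set of regulators and markers and the 5 genes of nearest profile. Groups come from the sample titles. Probe positions are on mm9. The number of arrays limits precision. Members and lists were chosen with earlier results of these data known. Alternatives were other normalizations, filters and blocks, the deposited log2 value table, 2-group fits and fits without 1 array.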

Additional observations from a re-analysis of the deposited data

How the results depend on the processing

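The number of members called in CDPs with a tumor was 3 and ranged from 2 to 4 over the other settings and from 3 to 4 when 1 array was left out. In MDPs the 3 calls became 1 without a filter on low signal, 1 with the deposited value table and 1 in a fit of only the 2 groups, and ranged from 0 to 3 when 1 array was left out. In the step from MDP to CDP without a tumor the 3 calls became 1 after normexp background correction and ranged from 1 to 3 without an array. The 5 other granulocyte genes called in CDPs became 2 with a replicate block and 1 in the fit of only the 2 groups, and ranged from 2 to 6 without an array. The cause was not tested. The step of *Ngp*, 0.24 and not called, reversed to −0.23 with normexp, −0.18 without tumor-free MDP sample 5 and −0.15 without tumor-free CDP sample 2, and ranged from −0.18 to 0.74 when 1 array was left out.

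Over all probes, 494 calls in CDPs became 1248 with slide as a block and 56 in the 2-group fit (155 to 581 without an array). The 18 in MDPs became 6 with normexp, 11 with quantile normalization, 10 without a filter, 10 when probes had to be above background on all 16 arrays, 7 with the deposited table, 44 with slide as a block, 10 with a replicate block and 5 in the 2-group fit (1 to 46 without an array). The 1673 in the tumor-free step became 2925 with slide as a block (1117 to 1719 without an array). Quantile normalization moved the median MDP difference of all probes from −0.12 to 0.00, and normexp the median step from 0.02 to −0.11.

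Deviations of same-numbered samples from their group means were compared over the tested probes. The r was 0.02 to 0.48 for CDPs, −0.56 to 0.44 for MDPs and −0.63 to 0.06 for the tumor-free step. The tumor-bearing step was not checked, and the main fit used no pairs. Averaged over *Ngp*, *Camp* and *Ltf*, samples 2 to 5 deviated by 1.40, 0.90, −0.95 and −1.35 in tumor-free MDPs. In tumor-free CDPs it was 1.43, 0.36, −1.63 and −0.15. Same-numbered tumor-free MDP and CDP arrays lay on different slides, so the r of the step cannot decide whether they shared mice. With a replicate block the CDP calls went from 494 to 371, and in the step the adjusted p of *Mmp8* became 0.0696. *Ngp*, *Camp*, *Ltf* and *Cd177* were dim but well above background on 15 of the 16 arrays, and the second *Camp* probe on 13. The wide standard errors of *Ngp*, *Camp* and *Ltf* go with their residual SDs of 1.14, 1.63 and 0.94, whose source was not tested. *Mmp9* could not be measured.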
